A study of Homo sapiens with 6 samples.

Results

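The 10 genes described here encode chaperones, folding enzymes and regulators of the endoplasmic reticulum (ER), the compartment in which secreted and membrane proteins are folded. They are HSPA5, HSP90B1, CALR, CANX, PDIA4, PDIA6, HERPUD1, XBP1, ATF6 and SDF2L1, taken by name from the 47470 genes listed in the count tables. All 10 were counted in every library and all 10 passed the filter on low counts, as did 15298 genes in all. RNA was sequenced from wild-type HEK293T cells, an established human line from embryonic kidney that makes the large T antigen of SV40, in 3 untreated libraries and in 3 libraries of cells given 1 mM valproic acid (VPA) for 1 day. VPA inhibits histone deacetylases. The study describes fresh medium with or without VPA and names no vehicle for the untreated cells. The labels do not say whether the 3 libraries of a condition came from separate cultures, and the p-values measure only the spread between these libraries, which may be technical.

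When unfolded proteins build up in the ER, sensors in its membrane start the unfolded protein response. IRE1 (gene ERN1) splices the mRNA of XBP1, PERK (gene EIF2AK3) slows translation while favouring ATF4, and ATF6 is cut in the Golgi to release a transcription factor. The targets of these factors include BiP (gene HSPA5), which also binds and restrains the sensors, GRP94 (gene HSP90B1), the lectin chaperones calreticulin (CALR) and calnexin (CANX), and the protein disulphide isomerases PDIA4 and PDIA6. HERPUD1 works in the degradation of misfolded ER proteins, and SDF2L1 is a small partner of BiP and its cochaperones. ATF6 and XBP1 act on promoters through the ER stress response elements, together with the CCAAT-binding factor NF-Y.

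The promoter letters are shown because 8 of the 10 genes hold 1 of the 2 motifs below. The genes were taken as genes of the unfolded protein response, and the motifs are elements of that same response. The choices of genes and motifs are therefore not independent, and how often the members hold a motif tests nothing. Promoters were read from RefSeq on GRCh38.p14, from 250 bases before to 50 bases after each start, and all 10 genes were matched. Both strands were searched for the ER stress response element (ERSE), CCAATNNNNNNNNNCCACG, and for the shorter ERSE-II, ATTGGNCCACG. The ERSE was in 0.0769% of the 35116 promoter entries, or 25 of 27305 gene symbols, and in 6 of the 10 genes. The ERSE-II was in 0.0541% of entries, or 19 symbols, and in 2 of the 10. The motifs share the letters CCACG, and no gene held both. Each stretch reads 5′ to 3′ on the strand of its gene with 5 bases on either side, and the capitals mark the whole motif, including its free positions. HSP90B1 held 2 matches.
HSPA5, chr9:125241386-125241414, minus strand: cttcaCCAATCGGCGGCCTCCACGacggg
HSP90B1, chr12:103930211-103930239, plus strand: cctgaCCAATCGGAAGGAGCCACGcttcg
HSP90B1, chr12:103930316-103930344, plus strand: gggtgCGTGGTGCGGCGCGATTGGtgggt
CALR, chr19:12938379-12938407, plus strand: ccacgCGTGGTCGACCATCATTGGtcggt
CANX, chr5:179698773-179698801, plus strand: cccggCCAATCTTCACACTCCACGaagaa
PDIA6, chr2:10812848-10812876, minus strand: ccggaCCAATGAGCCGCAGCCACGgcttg
XBP1, chr22:28800598-28800626, minus strand: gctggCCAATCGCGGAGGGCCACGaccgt
HERPUD1, chr16:56932020-56932040, plus strand: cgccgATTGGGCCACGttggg
SDF2L1, chr22:21642109-21642129, plus strand: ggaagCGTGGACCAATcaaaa

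The match in HSPA5 ended 48 bases before the start and that in XBP1 34 bases before it, whereas the match in CALR began further out, at position -225 from the start. The matches in CALR, SDF2L1 and the second stretch of HSP90B1 were on the opposite strand to the gene. The CANX stretch served 3 annotated starts, at 151 and 189 bases before the starts of 2 entries and across the start of another. The PDIA6 and CANX stretches belong to starts inside those genes as annotated. Annotated GENCODE exons of the CANX and HSP90B1 genes overlapped their stretches, and those of the other genes did not. PDIA4 and ATF6 held neither run of letters in this window.

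Counts on genes totalled 18622267 to 18828495 per library, so depth differed little. Values below are normalized counts, scaled by edgeR's TMM method to the mean library, and were tested with edgeR's quasi-likelihood test with Benjamini-Hochberg adjustment over all 15298 tested genes, at an adjusted p under 0.05. TMM factors were 0.950 to 0.965 in the untreated and 1.045 to 1.048 in the VPA-treated libraries, so that a gene with equal raw counts in both conditions is given a lower level under VPA. The identity of the cells was checked on 4 genes that this line is known to express (PAX2, VIM, NEFL and NEFM), which summed to 15830 to 16290 normalized counts in the untreated and 18427 to 19624 in the VPA-treated libraries, none at 0. They moved in different directions, since VIM fell by 0.27 on the log2 scale and PAX2, NEFL and NEFM rose by 2.26, 1.06 and 0.87. Untreated means were 10739 for VIM, 4348 for NEFM, 995 for NEFL and 29.6 for PAX2. The sums therefore rest mostly on VIM and NEFM and say little about PAX2. The 8 markers of other cell types summed to 13.6 to 21.0 and 79.0 to 86.2 in the same libraries, mostly through MYOD1 and GFAP, with KRT5 at 0 throughout. Their part in the results was not tested.

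Of the 10 genes, HSPA5, CALR, PDIA4 and SDF2L1 rose in VPA-treated cells and ATF6 fell, all by at most 1.22-fold. The other 5 did not pass the test. Over all tested genes 32.9% were called higher and 30.0% lower, so that 4 higher and 1 lower of 10 is close to the background in the first direction and below it in the second. No member reached the study's second threshold of 1 on the log2 scale, against 12.5% of all tested genes past both thresholds. The 6 libraries separated by condition in 6 of the 10 genes, against 65.8% of all tested genes. Of the 4643 tested genes averaging 1000 normalized counts or more, 14.6% were higher and 57.4% lower. All members other than SDF2L1 have means above that level, and of these 9 members 3 were higher and 1 lower. Of all called genes 52.3% were higher with TMM. Scaling by the upper quartile made this 63.0%, by library totals 73.9%, and by the ribosomal protein genes 91.6%. The median log2 fold change was 0.076 over the 10 genes and 0.0058 over all tested genes. RNA was taken from whole cultures, where a change in the RNA of each cell and a change in the mix of cells cannot be told apart.

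**Figure D1:**
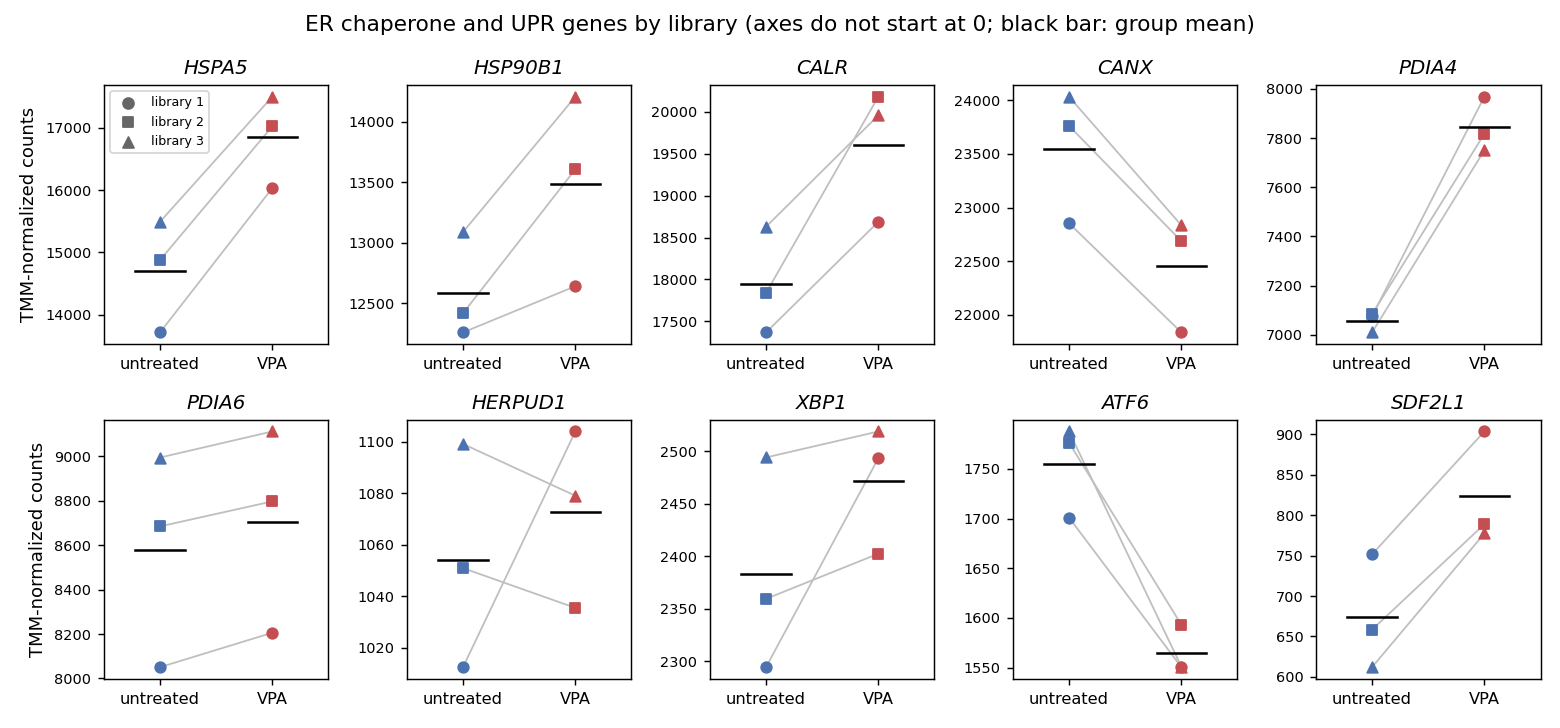
Normalized counts of each of the 10 genes (vertical axes, not starting at 0) in the 3 untreated (blue) and 3 VPA-treated (red) libraries, with lines joining libraries of the same replicate number and black bars at the group means. The conditions do not overlap in HSPA5, CALR, CANX, PDIA4, ATF6 and SDF2L1.

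HSPA5, on chromosome 9 from 125234853 to 125241343, encodes BiP, the Hsp70 chaperone of the ER lumen. Untreated libraries had 13715, 14876 and 15491 normalized counts, against 16032, 17023 and 17499 in VPA-treated libraries. Every VPA-treated library was above every untreated one, although the highest untreated and lowest VPA-treated libraries lay close together. The mean rose from 14694 ± 902 to 16851 ± 748 (SD, n = 3 each), which is 14.7%, or log2 0.20 ± 0.048 (SE) with adjusted p = 0.0011. Libraries of the same number differed by 0.18 to 0.23 on the log2 scale. HSPA5 was called under all 17 settings tried, with log2 fold changes between 0.14 and 0.47, and 35.0% of tested genes had a larger log2 fold change.

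HSP90B1, on chromosome 12 from 103930410 to 103947926, encodes GRP94, the Hsp90 of the ER. The 3 untreated libraries held 12257, 12416 and 13087 normalized counts, and the 3 with VPA 12639, 13605 and 14205. The lowest VPA-treated library, of replicate number 1, fell within the untreated range. The log2 fold change was 0.099 ± 0.046 (SE), and the adjusted p of 0.065 missed the threshold. With the replicate number as a block in the fit, which compares libraries of the same number, the log2 fold change was 0.098 with an adjusted p of 0.0022. The gene also passed without untreated replicate 3 (adjusted p of 0.046), without VPA-treated replicate 1 (0.0093), with the upper quartile (0.0043), with scaling by library totals (1.61e-04) or by ribosomal protein genes (4.10e-07) and with a filter of 10 counts in every library (0.028). In all it was called under 8 of the 17 settings.

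SDF2L1, on chromosome 22 from 21642302 to 21644299, had the fewest counts of the 10 genes. The normalized counts ran 752, 658 and 612 without VPA and 904, 789 and 777 with it. The conditions did not overlap, and the libraries numbered 1 were the highest in both. The mean rose from 674 ± 71.1 to 823 ± 69.8 (SD, n = 3 each), by log2 0.29 ± 0.072 (SE) with adjusted p = 0.0019. The increase of 22.2% was the largest among the 10 genes, and SDF2L1 was called under all 17 settings.

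CALR, on chromosome 19 from 12938609 to 12944489, encodes calreticulin, a soluble lectin chaperone that also stores calcium. In library order, CALR had 17367, 17839 and 18629 normalized counts untreated and 18688, 20182 and 19959 under VPA. The conditions did not overlap, but the highest untreated and lowest VPA-treated libraries were nearly level. The log2 fold change was 0.13 ± 0.044 (SE), adjusted p = 0.015. The call was lost without untreated replicate 2 (adjusted p of 0.074), VPA-treated replicate 2 (0.094) or VPA-treated replicate 3 (0.073), and at a threshold of 0.01. With DESeq2 the adjusted p was 0.047. In all CALR was called under 13 of the 17 settings.

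CANX, on chromosome 5 from 179678656 to 179731641, encodes calnexin, the membrane-bound relative of calreticulin. Untreated libraries had 22853, 23761 and 24033 normalized counts, against 21836, 22687 and 22834 in VPA-treated libraries, all of the latter lower. The log2 fold change of -0.069 ± 0.042 (SE) did not pass the test, with an adjusted p of 0.16. It passed with the replicate number as a block (adjusted p of 0.030), with DESeq2 (-0.093, adjusted p of 0.041) and without untreated replicate 1 (-0.096, adjusted p of 0.038). The direction depends on the scaling, since the log2 fold change was 0.063 with library totals and 0.20 when the ribosomal protein genes set the scale.

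PDIA4, on chromosome 7 from 149003051 to 149028505, encodes a disulphide isomerase of the ER with several thioredoxin domains. The 3 untreated libraries held 7076, 7084 and 7010 normalized counts, and the 3 with VPA 7968, 7817 and 7750. The libraries of each condition lay within a narrow band, and the conditions were well apart. The mean rose from 7057 ± 40.7 to 7845 ± 112 (SD, n = 3 each), by log2 0.15 ± 0.038 (SE) with adjusted p = 0.0015. PDIA4 passed the test under all 17 settings, as HSPA5 and SDF2L1 did.

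PDIA6, on chromosome 2 from 10783391 to 10837712, encodes another disulphide isomerase. The normalized counts ran 8050, 8685 and 8995 without VPA and 8206, 8798 and 9113 with it. The conditions overlapped almost completely, with the libraries in the same order of number in both. The log2 fold change was 0.021 (95% confidence interval -0.076 to 0.12) with an adjusted p of 0.71, and its sign changed between settings.

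HERPUD1, on chromosome 16 from 56932142 to 56944864, encodes an ER membrane protein of the degradation machinery. In library order, HERPUD1 had 1013, 1051 and 1099 normalized counts untreated and 1104, 1036 and 1079 under VPA. The conditions overlapped, and 1 of the 3 same-number pairs was higher under VPA. The log2 fold change was 0.025 (95% confidence interval -0.080 to 0.13) with an adjusted p of 0.68, and its sign turned without untreated replicate 1 (-0.0092).

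XBP1, on chromosome 22 from 28794560 to 28800569, encodes the transcription factor made by the IRE1 branch. Untreated libraries had 2294, 2359 and 2494 normalized counts, against 2493, 2402 and 2519 in VPA-treated libraries. The ranges overlapped, and the log2 fold change of 0.053 (95% confidence interval -0.037 to 0.14) had an adjusted p of 0.30. Counts per gene do not separate the spliced from the unspliced mRNA, so the activity of IRE1 was not measured here.

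ATF6, on chromosome 1 from 161766320 to 161964070, encodes the sensor that becomes a transcription factor once cut. The 3 untreated libraries held 1701, 1776 and 1788 normalized counts, and the 3 with VPA 1550, 1593 and 1551. Every VPA-treated library was below every untreated one. The mean fell from 1755 ± 47.1 to 1565 ± 24.5 (SD, n = 3 each), by log2 -0.17 ± 0.044 (SE) with adjusted p = 0.0025. The direction depends on the scaling, since the call was lost with the upper quartile (adjusted p of 0.056) and with library totals (-0.034, adjusted p of 0.51), and the log2 fold change was 0.11 with ribosomal protein scaling. The cutting of the protein is not seen in RNA counts.

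**Figure D2:**
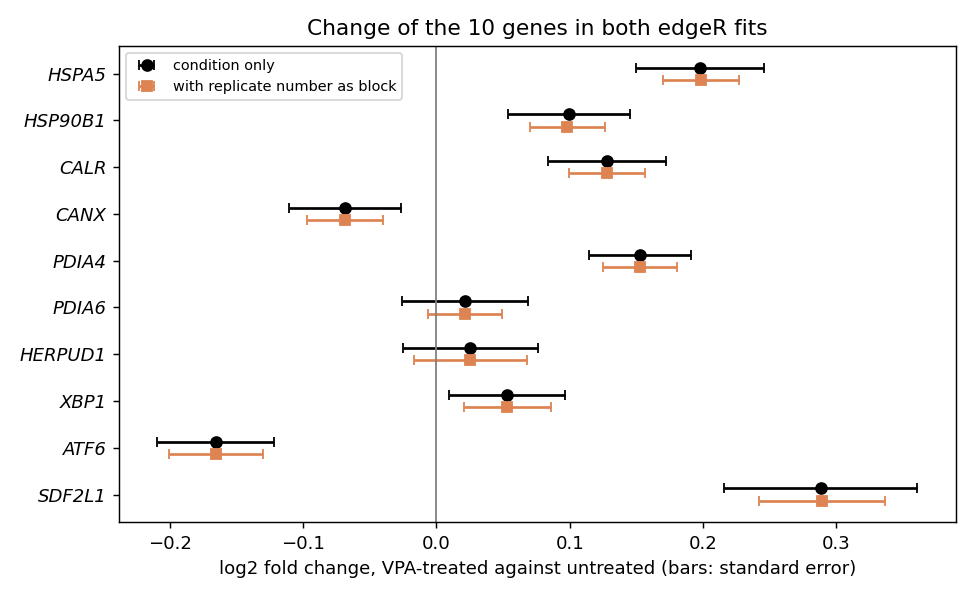
Log2 fold changes of the 10 genes, VPA-treated against untreated (horizontal axis), with standard errors, from the fit with condition alone (circles) and the fit with the replicate number as a block (squares). The estimates are nearly the same in both fits and the errors are smaller with the block, where HSP90B1 at 0.098 and CANX at -0.069 also pass the test.

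With the replicate number as a block, 5 of the 10 genes were called higher and 2 lower, against 35.0% and 33.3% of all tested genes. The block added HSP90B1 to the higher genes and CANX to the lower ones. The scaling moved all 10 genes together, since the median over all tested genes moved to 0.14 with library totals and to 0.28 when the ribosomal protein genes were held level. Relative to that median the order of the genes stayed as it was, with SDF2L1, HSPA5, PDIA4, CALR and HSP90B1 above it and CANX and ATF6 below it under each of the 5 scalings. A scaling shifts the log2 fold change of every gene by nearly the same amount. The order could thus hardly change, and its keeping tests nothing. As a share of all counts on genes, which amounts to scaling by library totals, the 10 genes summed to 0.460% ± 0.0122 in the untreated and 0.530% ± 0.0175 in the VPA-treated libraries (SD, n = 3 each). The sum of their normalized counts overlapped between conditions, at 87078 to 93238 untreated and 91419 to 97287 under VPA. Each VPA-treated sum was above the untreated sum of the same replicate number.

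**Figure D3:**
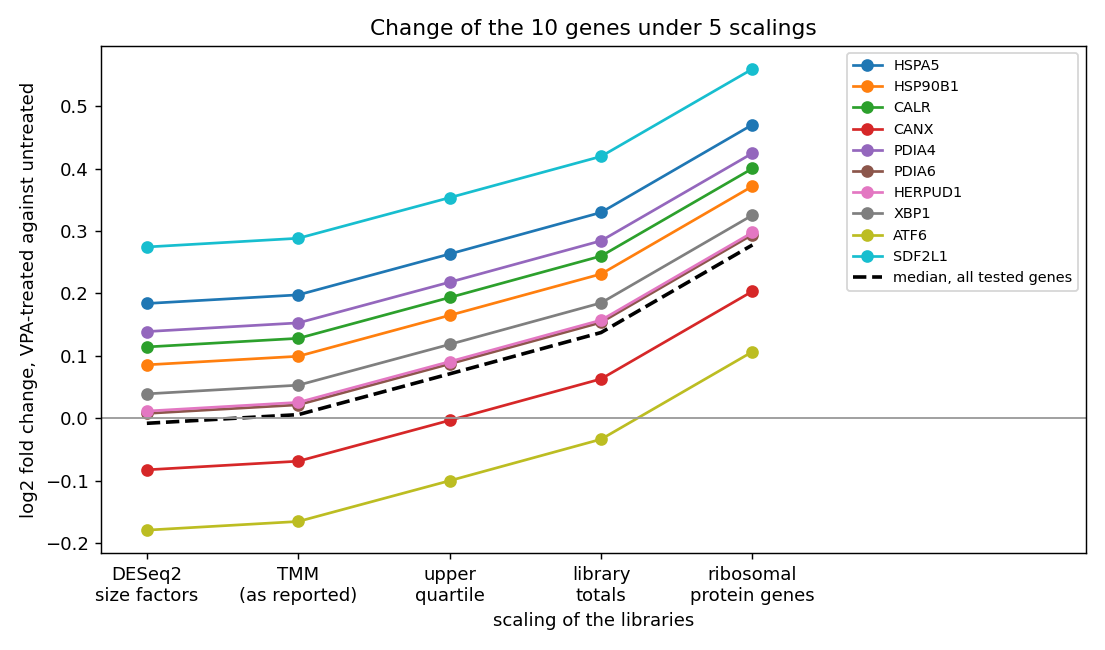
Log2 fold changes of the 10 genes (vertical axis) under 5 scalings of the libraries (horizontal axis), with the median of all tested genes as a dashed line. The lines run in parallel because a scaling shifts every gene by nearly the same amount. CANX and ATF6 cross 0 as the median of all genes moves from 0.0058 with TMM to 0.28 with ribosomal protein scaling.

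Levels were compared between genes per kilobase of exon, with the union of GENCODE exons as length. CALR had the highest level, at 6404 ± 227 normalized counts per kb untreated and 6998 ± 288 under VPA (SD, n = 3 each). HSPA5 followed at 2250 ± 138 and 2581 ± 115, PDIA4 at 2140 ± 12.3 and 2379 ± 33.8, and PDIA6 at 2094 ± 118 and 2125 ± 112. CANX was at 1711 ± 44.9 and 1631 ± 39.2, HSP90B1 at 961 ± 33.7 and 1030 ± 60.4, XBP1 at 787 ± 33.7 and 816 ± 20.2, and SDF2L1 at 636 ± 67.1 and 777 ± 65.9. HERPUD1, at 208 ± 8.57 and 212 ± 6.84, and ATF6, at 123 ± 3.30 and 110 ± 1.72, were the lowest. With this length the order was the same in both conditions. In untreated cells the libraries of HSPA5 and PDIA4, and of PDIA4 and PDIA6, overlapped, and under VPA those of XBP1 and SDF2L1 did. With the longest transcript as length, HSPA5 was in 4th and PDIA4 in 5th place in both conditions. CANX was then 2nd and PDIA6 3rd in untreated cells and the reverse under VPA, so that the order among these genes rests on the length chosen. HSP90B1 was 6th with both lengths, 13092 bases for the exon union and 6609 for the longest transcript. The length of the transcripts expressed was not measured, so the place of every gene, HSP90B1 included, is relative to the length used.

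**Figure D4:**
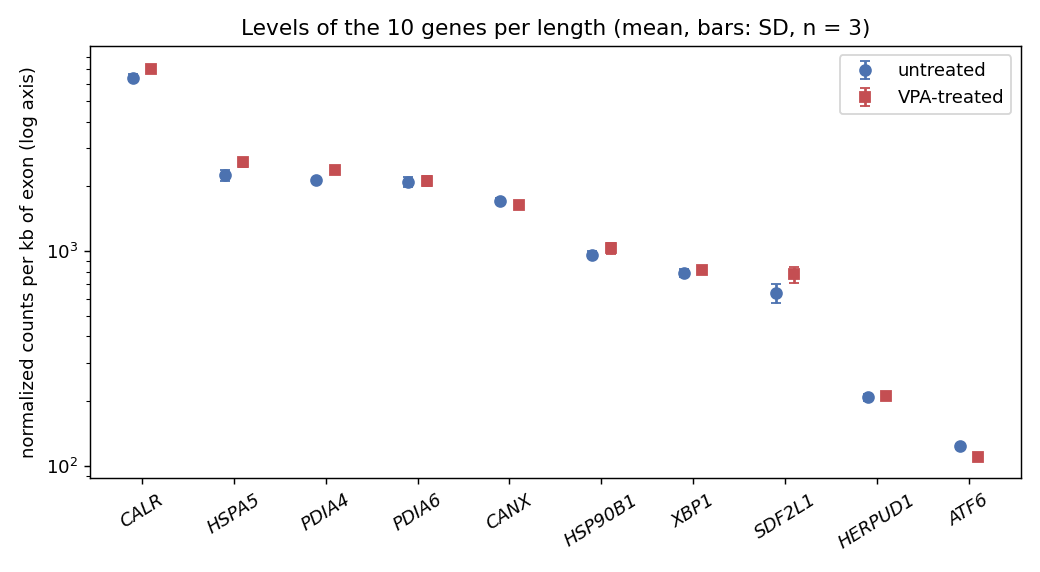
Normalized counts per kb of exon (vertical log axis) of the 10 genes in untreated (circles) and VPA-treated (squares) cells, as means with SD over 3 libraries. The levels run from CALR at 6404 in untreated cells to ATF6 at 123, and with this length the order is the same in both conditions.

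The profile of HSPA5 over the 6 libraries, as log2 normalized counts centred on their mean, was most like those of MPZL1, CTSC, ANXA5, CD63 and BPNT1 among the 4642 other genes that averaged 1000 normalized counts or more. The root mean square difference was 0.021 for MPZL1 and 0.025 for BPNT1, the fifth. Their log2 fold changes were 0.16 to 0.24. Of the other members CALR came nearest, in 57th place with a difference of 0.047, and HSP90B1 was in 139th place with 0.060. The likeness rests on 6 libraries and on the condition difference that all of these genes share.

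Other genes of ER folding and quality control were described by 9 lists, which hold 177 genes, of which 161 were tested, the 10 members included. Of these, 38 were higher and 51 lower under VPA, which is 23.6% and 31.7% beside 32.9% and 30.0% of all tested genes, and the median log2 fold change was -0.048. With the replicate block 44 were higher and 67 lower, where 35.0% and 33.3% of all tested genes were. The same shares stand beside the blocked counts of the lists below. Of the 105 pathway genes averaging 1000 normalized counts or more, 17 were higher and 42 lower, and the shares over all such genes were 14.6% and 57.4%. Past both thresholds were 4 pathway genes, all higher, against 12.5% of all tested genes, of which 1833 were higher and 77 lower. This balance depends on the scaling, with 64 higher and 18 lower by library totals and 122 higher and 5 lower by ribosomal protein scaling, so the directions given below are relative to TMM. In all 6 libraries 7 genes are listed at 0, of which PRDX4, MBTPS2, SSR4 and MAGT1 lie on chromosome X, where all 1437 listed genes that RefSeq places there by symbol are at 0.

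Among BiP, GRP94 and their cochaperones, 7 of 19 tested genes were higher (36.8%, near the 32.9% of all tested genes) and 2 lower, or 4 lower with the replicate block, with a median of 0.075. Of the 9 averaging 1000 normalized counts or more, 4 were higher and 1 lower, where 14.6% and 57.4% of all such genes were. CNPY4 rose from 398 ± 17.3 to 549 ± 20.8 normalized counts (log2 fold change of 0.46, adjusted p of 2.02e-06), and DNAJB9, a J-protein that brings BiP to IRE1, from 160 ± 15.9 to 201 ± 15.1 (0.33, adjusted p of 0.0064). CNPY3, which works with GRP94 on Toll-like receptors, fell from 565 ± 25.6 to 453 ± 46.6 (-0.32, adjusted p of 5.13e-04), and CNPY2 fell by 0.12 on the log2 scale. In the calnexin and calreticulin cycle, 4 of 10 were higher and 3 lower, with a median of -0.0068. These shares of 40% and 30% are near the 32.9% and 30.0% of all tested genes. CLGN, a relative of calnexin best known from the testis, rose from 289 ± 27.5 to 519 ± 37.2 (0.85, adjusted p of 4.51e-09). UGGT2, a glucosyltransferase related to the sensor of glycoprotein folding, rose by 0.28. The subunit of glucosidase II encoded by GANAB fell by 0.22 on the log2 scale and the glucosidase I gene MOGS by 0.21.

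In the list of disulphide exchange and oxidative folding, 8 of 27 tested genes were higher and 7 lower, with a median of -0.048. These are 29.6% and 25.9%, beside 32.9% and 30.0% of all tested genes. With the replicate block 11 of the list were lower. ERO1B, an oxidase that reoxidizes the disulphide isomerases, rose from 406 ± 22.4 to 566 ± 29.4 (0.48, adjusted p of 1.83e-06), and the sulphydryl oxidase gene QSOX1 rose by 0.43. TXNDC12 fell from 1477 ± 67.6 to 1036 ± 11.8 (-0.51, adjusted p of 8.28e-09), and P4HB, the archetypal disulphide isomerase, from 14525 ± 351 to 12456 ± 345 (-0.22, adjusted p of 7.20e-05). P4HB and PDIA4, of one enzyme family, thus changed in opposite directions at this scaling. Of the ER prolyl isomerases, 3 of 7 rose and 0 fell, with FKBP7 at 0.73 and FKBP9 at 0.45 on the log2 scale. The 42.9% that rose stand beside 32.9% of all tested genes. Of the 2 genes of this list averaging 1000 normalized counts or more, 0 were higher and 0 lower. Among all genes at that level 14.6% were higher and 57.4% lower.

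In ER-associated degradation 3 of 35 genes were higher (8.57%) and 18 lower (51.4%), where 32.9% and 30.0% of all tested genes were. The median of the list was -0.13, and 5 of its genes were higher with the replicate block. Of its 25 genes averaging 1000 normalized counts or more, 3 were higher and 13 lower, where 14.6% and 57.4% of all such genes were. MARCHF6, a ubiquitin ligase of the ER membrane, fell from 3328 ± 73.2 to 2459 ± 68.8 (-0.44, adjusted p of 6.74e-09). VCP, the ATPase that pulls substrates out of the membrane, fell from 12316 ± 579 to 9217 ± 159 (-0.42, adjusted p of 2.29e-08). The mannosidase-like genes EDEM3 and EDEM1 rose by 0.24 and 0.21. Among genes of the translocon, signal peptidase and oligosaccharyltransferase, 4 of 28 were higher and 10 lower, with a median of -0.058. These are 14.3% and 35.7%, beside 32.9% and 30.0% of all tested genes. Of the 25 genes of this list averaging 1000 normalized counts or more, 3 were higher and 9 lower, beside the same 14.6% and 57.4%. The channel gene SEC61A1 fell by 0.29 on the log2 scale and TMEM258 by 0.35, and SEC61A2, the less expressed paralog of SEC61A1, rose by 0.39 and DAD1 by 0.12.

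Of the sensors and transcription factors, 4 of 17 were higher and 5 lower, with a median of -0.025. These are 23.5% and 29.4%, beside 32.9% and 30.0% of all tested genes. ERN1 (log2 fold change of -0.025, adjusted p of 0.77) and EIF2AK3 (0.058, adjusted p of 0.49) did not pass the test. CREB3L1, encoding an ER-membrane factor that is cut like ATF6, had 46.6, 46.1 and 54.6 normalized counts untreated and 230, 227 and 205 under VPA. It rose by log2 2.17 ± 0.12 (SE), adjusted p = 1.16e-12, which is further than any of the 10 members moved. CREB3L3, a related factor best known from the liver, had 1 count in all in the untreated and 52 in the VPA-treated libraries, a ratio of 47.8 with a 95% counting interval of 8.21 to 1924. CREB3L2 rose by 0.34. The NF-Y subunit genes NFYC and NFYA fell by 0.47 and 0.35. NFYB, the subunit gene of NF-Y also in this list, did not pass the test (-0.0039, adjusted p of 0.96).

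In the PERK arm, 1 of 8 was higher and 3 lower, with a median of -0.17. These are 12.5% and 37.5%, beside 32.9% and 30.0% of all tested genes. ATF4, whose mRNA is translated when PERK is active, had 18692, 19690 and 21744 normalized counts untreated and 16774, 16523 and 17045 under VPA. All VPA-treated libraries were lower, with a log2 fold change of -0.26 and an adjusted p of 9.74e-05. PPP1R15A, a phosphatase subunit that ends the PERK signal, fell by 0.32 on the log2 scale, and TRIB3 rose by 0.37. DDIT3, encoding the pro-apoptotic factor CHOP, had few counts, at 79.3 ± 6.89 and 67.8 ± 11.8, and did not pass the test (-0.23, adjusted p of 0.19).

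Among the KDEL receptors and genes of the ER calcium store, 5 of 14 were higher and 4 lower, with a median of -0.036. These shares of 35.7% and 28.6% are near the 32.9% and 30.0% of all tested genes. The calcium pump gene ATP2A3 rose from 136 ± 13.8 to 337 ± 13.5 normalized counts (1.30, adjusted p of 4.51e-11), and RCN3 from 40.0 ± 1.62 to 83.8 ± 0.830 (1.06, adjusted p of 1.65e-06). The calcium release channel gene ITPR1 rose by 0.95, while SDF4 fell by 0.22 and RCN2 by 0.21.

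**Figure D5:**
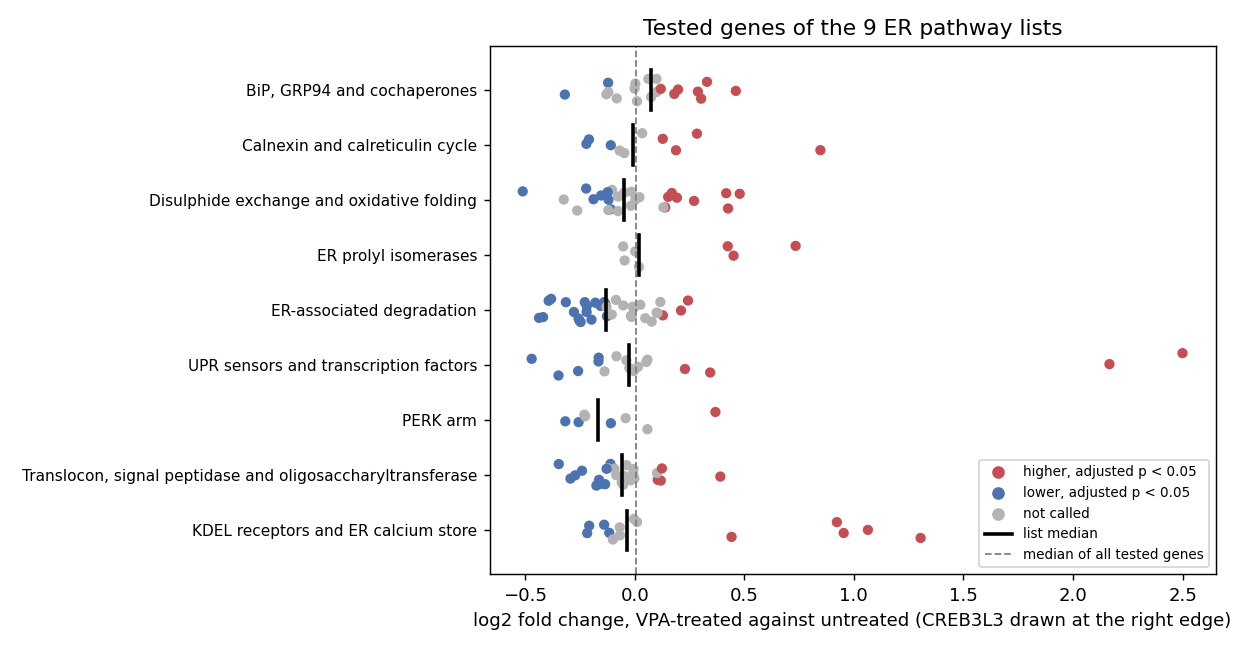
Log2 fold changes, VPA-treated against untreated (horizontal axis), of the tested genes of 9 ER pathway lists (vertical positions within a list are arbitrary), coloured by call, with black bars at the list medians and a dashed line at the median of all tested genes. The median of ER-associated degradation is -0.13 and that of BiP, GRP94 and cochaperones 0.075, and the largest changes are CREB3L3, drawn at the right edge, and CREB3L1 at 2.17.

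Genes that hold an ERSE or ERSE-II in a promoter, shown for the members above, numbered 44 by symbol, of which 33 were tested. Of these, 10 were higher, 2 were lower and 21 were not called, with a median log2 fold change of 0.025. The replicate block made this 11 higher and 8 lower of the 33. Outside the members 7 of 25 were higher and 2 lower, with a median of -0.046, against 32.9% and 30.0% of all tested genes. With the replicate block 7 of these 25 were higher and 7 lower, beside 35.0% and 33.3%. HYOU1, the large Hsp70-like chaperone of the ER, held an ERSE-II and had a log2 fold change of -0.082 (adjusted p of 0.069, and 0.0099 with the replicate block), and CRELD2 held an ERSE and had -0.12 (adjusted p of 0.067, and 0.0075 with the block). Both were called lower with the block and not without it. These genes were chosen after their values were seen. PDIA4 rose without either run of letters in its window, and 5 of the 8 members with a motif, HSP90B1, CANX, PDIA6, HERPUD1 and XBP1, were not called without the block.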

How the data were processed

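Total RNA of HEK293T cells was made into 6 strand-specific mRNA libraries. The authors used STAR for alignment to hg38 and HTSeq for counting. The submitters' processing notes give STAR 2.7.10b and HTSeq 2.0.1, where the study's methods name a different HTSeq release, and the deposited values are raw read counts per gene, without normalization. The gene annotation and strand setting of the counting are not given in the sources used here, so that reads of HSP90B1, CALR, CANX and PDIA6 could not be told apart from those of overlapping genes on the opposite strand. The 5 summary lines of each table refer to reads outside any single gene and were set aside. They hold 6.80% to 7.69% of a library as reads off genes, 1.97% to 2.10% as ambiguous and 2.81% to 2.92% as not unique.

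The test was that of edgeR 4.0.16, run in R 4.3.3 (TMM, filterByExpr with a count minimum of 10, robust quasi-likelihood fit on condition, prior count 0.125, Benjamini-Hochberg adjustment, calls at 0.05). The biological coefficient of variation was 3.83%. On counts simulated for the same comparison, 200 of 200 changed genes were called over 15298 genes and 0 unchanged ones. The calling of changes as small as those of the members was not tested. Alternatives were DESeq2 1.42.0, other scalings and filters, a block for the replicate number, a threshold of 0.01 and leaving libraries out. Python 3.11.15 with pandas 2.3.3 and matplotlib 3.10.9 was used for lists and plots. Over the 11099 genes with a mean above 5 CPM, libraries of the same number deviated together from their group means (r of 0.41, 0.14 and 0.33, against -0.33 to 0.056 between other numbers). Over all 15298 tested genes r was 0.14, 0.021 and 0.080, against -0.11 to 0.031 between other numbers, and untreated library 2 was then nearer to VPA-treated library 3 than to its own number. The pairing comes from these correlations and not from the labels, and the blocked value is printed where it changes the call of a named gene or moves a count by over 1.5 times. Within a condition the chi-square between libraries was 1.62 to 4.80 per gene, above sampling noise, and each counts as 1 replicate.

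Members, lists and motifs were chosen with earlier results of these data known. Named in the lists are genes past both thresholds, the 2 largest increases and decreases per list among called genes averaging 100 normalized counts or more, and ERN1, EIF2AK3, ATF4 and DDIT3. NFYB is named beside NFYA and NFYC. A further marker gene of the cell line is not reported here.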

Additional observations from a re-analysis of the deposited data

How the results depend on the processing

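Over the 10 genes and 16 alternatives, 126 of 160 log2 fold changes kept their direction and their side of the threshold, 6 lost the call, 19 gained it and 9 changed sign. HSPA5, PDIA4 and SDF2L1 kept both throughout. Scaling moved the counts most. Library totals gave 8 members higher and 0 lower, and 64 pathway genes higher and 18 lower. Under ribosomal protein scaling these counts were 10, 0, 122 and 5, and 8 pathway genes passed both thresholds. With the upper quartile 0 members and 29 pathway genes were lower. DESeq2 called 2 members lower, CANX and ATF6. With the replicate block 2 members were lower, and the block changed no call of the 10 genes other than those of HSP90B1 and CANX. Leaving out 1 library gave 1 to 2 members lower, and leaving out replicate 1 in both groups, an alternative chosen after seeing the data, gave 2. The sign changed for CANX (0.063 with library totals, 0.20 with ribosomal protein scaling), for ATF6 (0.11 with ribosomal protein scaling) and for PDIA6 (-0.0029 with DESeq2, -0.00020 without a filter on low counts, and -0.028 to 0.062 when 1 library was left out). For HERPUD1 it was -0.0092 to 0.050 when 1 library was left out and -0.026 without replicate 1 in both groups. The shifts under other scalings follow the median of all genes, and the cause of the other changes was not tested. Depth limits genes such as DDIT3, RCN3 and CREB3L3, with 440, 377 and 53 counts over all libraries.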
